A study of Camellia sinensis with 24 samples.

Results

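Roots of the tea plant (Camellia sinensis) genotype “1511”, described by the study as tolerant of low K, were compared after growth without K (U.SK) and with full K (U.NK). Of the 24 libraries of the series, 6 belong to this comparison, 3 for each condition, and were chosen by genotype and treatment alone. The plants were one-year-old cuttings of a cross between Longjing 43 and Baihaozao, so “1511” is a single clonal genotype. Each hydroponic box held 12 plants, with the root system of a plant divided over both compartments. After 60 days of preculture, treatment lasted 5 days, with 1 mM K2SO4 on both sides in U.NK and 0 mM on both sides in U.SK. U.NK and U.SK of “1601”, a genotype from the same cross described as intolerant of low K, were treated in the same way and serve as a second comparison. The remaining libraries are the Sp.NK and Sp.SK groups of both genotypes, the supplied and the starved side of boxes with 1 mM K2SO4 in one compartment and 0 mM in the other, and they enter only through the estimate of spread, which was made over all 8 groups. Reads per gene were counted, and the 6 libraries held 15006288 to 19815566 counted reads. The study set up 3 replicates of each treatment, but whether each library came from a box of its own was not given in the sources used here. The p-values therefore rest on the spread between libraries within groups, estimated over all 24, and part of that spread may be technical.

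K is the most abundant cation of plant cells and is taken up by roots through channels and high-affinity transporters of the KUP/HAK and HKT types. In Arabidopsis, kinases of the CIPK family, bound to calcium sensors, activate K channels when K is scarce, and reactive oxygen species formed by NADPH oxidases and peroxidases take part in the signal. Expansins, endoglucanases, xyloglucan endotransglucosylases and pectin methylesterases loosen or remodel the wall of growing cells, whereas laccases, peroxidases and dirigent proteins act in the formation of lignin and related phenolic polymers. Small heat shock proteins (domain Hsp20), Hsp70 and Hsp90 are chaperones that bind unfolded proteins.

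The libraries did not separate cleanly by treatment. On a line where 0 is the mean of the U.SK libraries and 1 that of the U.NK libraries, each library being left out of its own mean, U.NK 2 lay at 0.24, close to U.SK 2 at 0.25. U.NK 1 lay at 0.91 and U.NK 3 at 1.38, beyond the U.NK mean. U.SK 1 lay at 0.07, and U.SK 3 at 0.54, between both means. The log2 values of U.NK 2 correlated more closely with the mean of the U.SK libraries (r = 0.976 across genes) than with that of the other U.NK libraries (r = 0.946). U.SK 3 was about equally close to both (r = 0.955 with the U.NK mean and 0.951 with the other U.SK libraries). Counts of called genes are therefore also given without single libraries, in particular U.NK 2 and, for heat shock proteins, U.SK 3. Whether these libraries carry the right labels was not tested, and every U.SK against U.NK value assumes that they do. The biological coefficient of variation was 0.387 among the U.NK libraries of “1511”, 0.247 without U.NK 2 and 0.341 among its U.SK libraries, against 0.176 and 0.191 in U.NK and U.SK of “1601”.

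**Figure D1:**
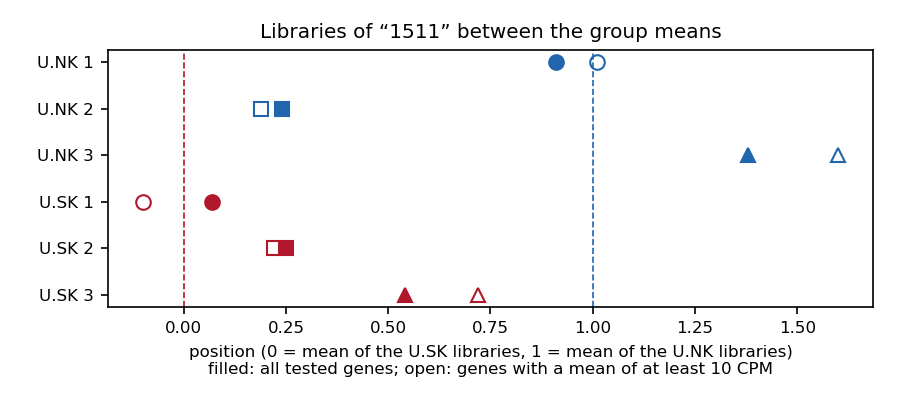
Position of each of the 6 “1511” libraries on a line from the U.SK mean (0) to the U.NK mean (1); filled symbols use all tested genes and open symbols genes with a mean of at least 10 reads per 1e6 counted (CPM). U.NK 2 (0.24 and 0.19) sits beside U.SK 2 (0.25 and 0.22), and U.SK 3 (0.54 and 0.72) sits between the groups.

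By edgeR, more genes were lower than higher without K. Of 35557 genes tested, 697 (1.96%) passed the test as higher on U.SK and 2089 (5.88%) as lower by edgeR's quasi-likelihood test over all 24 libraries, at an adjusted p-value under 0.05 and any fold. The genes called higher had a median log2 fold change of 1.08, and those called lower of −1.84. The median over all tested genes was 0.00. DESeq2 on all 24 libraries also called more genes lower (3010) than higher (1463). The excess of lower genes was not seen with every tool. With sample quality weights, limma voom called 6793 genes higher and 6670 lower. Its weights were 11.1, 0.269 and 0.473 for U.NK 1 to 3, so its U.NK level rested largely on U.NK 1. The U.NK and U.SK libraries did not overlap in CPM for 7044 genes (19.8%), and these included 416 of the genes called higher and 1393 of those called lower.

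U.NK 2 reduced the number of calls. When it was left out, 2155 genes (5.93% of 36362 tested) were called higher and 4456 (12.3%) lower. The share of genes whose groups did not overlap was 46.2%, but 2 libraries against 3 overlap less often than 3 against 3 without any change, so this share cannot be set against 19.8%. Of the genes called with all libraries, 92.3% of those higher and 98.2% of those lower were called again. Among genes called without U.NK 2 that were also tested with all libraries, its value was nearer to the U.SK mean than to the mean of the other U.NK libraries in 1639 of 2133 higher genes (76.8%) and in 3547 of 4448 lower genes (79.7%). U.SK 3 stood apart mainly for the genes that were higher. Among genes called without U.SK 3 and tested with all libraries, its value was nearer to the U.NK mean in 1196 of 1402 higher genes (85.3%) and in 923 of 2268 lower genes (40.7%). At a mean of at least 10 CPM, 118 of 14620 genes were more than 4 times lower in U.SK 3 than in every other library, against 1 to 6 genes in each of the others.

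The calls also depended on U.NK 3 and U.SK 1, the libraries at both ends of the line, and on the estimate of spread. Without U.NK 3 only 293 genes were called (34 higher and 259 lower of 36432 tested). Without U.SK 1 only 623 were (65 and 558 of 36387). The counts were 259 higher and 1200 lower of 36375 without U.SK 2, and 188 and 1332 of 36383 without U.NK 1. They were 1439 and 2268 of 36450 without U.SK 3. List members called without a library, given below, are to be set against these totals. Whichever of the 6 libraries was left out, 26 of the higher calls and 249 of the lower calls were made. edgeR fitted on the 12 libraries of “1511” alone called 0 genes (6831 with an unadjusted p-value under 0.05) and on the 6 libraries compared also 0 (4581 unadjusted), where DESeq2 called 250 higher and 948 lower. Without U.NK 2, the fit on “1511” alone called 704 higher and 2753 lower genes. Single calls below therefore assume the spread of all 24 libraries, and all adjusted p-values are from edgeR's quasi-likelihood test unless another tool is named. The biological coefficient of variation of that fit was 0.286, below the 0.387 and 0.341 of U.NK and U.SK of “1511” alone. The adjusted p-values may therefore be too small for these 6 libraries.

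**Figure D2:**
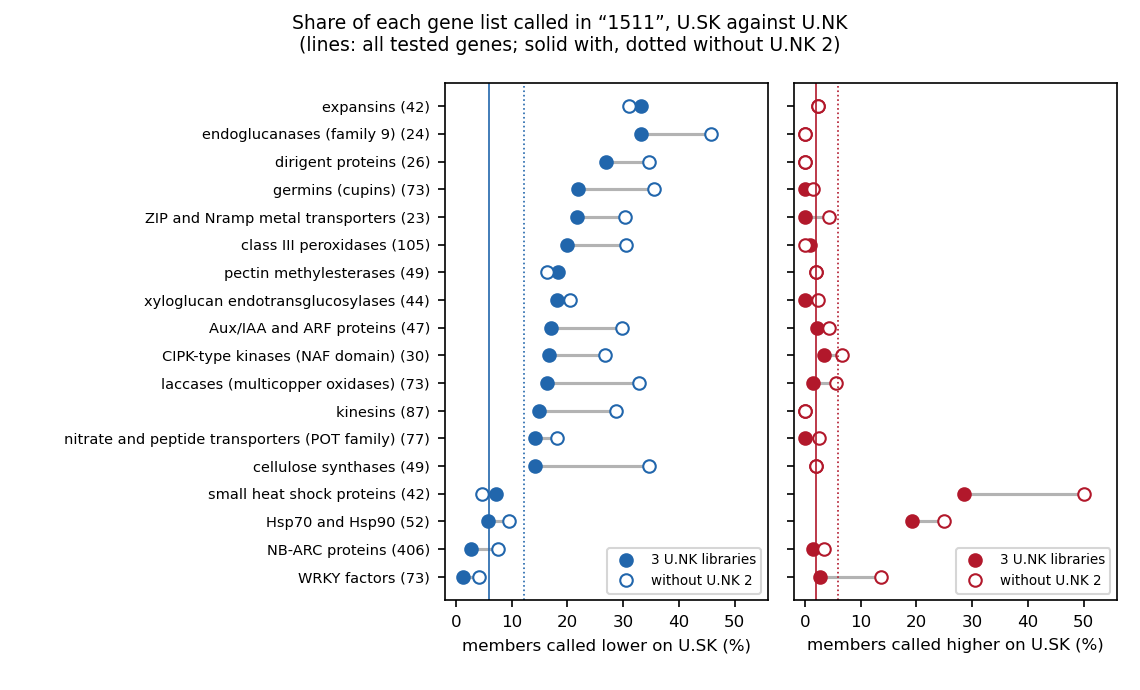
Percentage of tested members of 18 gene lists (members tested in brackets) called lower (left) or higher (right) on U.SK, with all U.NK libraries (filled) and without U.NK 2 (open); vertical lines give the percentages over all tested genes (5.88% and 12.3% lower, 1.96% and 5.93% higher). Endoglucanases and germins lie to the right of the lines on the left panel, and both heat shock lists do so on the right panel.

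Most K transporter genes did not pass the test, and with all libraries the only called members were lower. Of 46 tested genes with a K transporter or channel domain, 0 were called higher and 5 lower (10.9%, against 5.88% of all genes). Their median log2 fold change was 0.09. TEA016242, which the study describes as related to K transport, carries another domain and is given below. The 46 genes summed to 1792, 1879 and 1420 CPM in U.NK and 2202, 1932 and 2081 CPM in U.SK, so the sum did not fall. The 5 called genes had median levels of 3.4, 1.62 and 3.61 CPM in U.NK and 0.409, 0.623 and 0.649 CPM in U.SK. Without U.NK 2 the counts were 3 higher and 7 lower, and without U.NK 1, U.NK 3 or U.SK 1 they were 0 and 2, and 3 were lower without U.SK 2 or U.SK 3. TEA003873, a K+ transporter of the KUP/HAK type on scaffold 854 (705617 to 716543, minus strand, tpia1 assembly, 9 exons), had 149, 52.1 and 143 CPM in U.NK 1 to 3 and 19.3, 30.9 and 34.0 CPM in U.SK 1 to 3. All U.NK values were above all U.SK values, with U.NK 2 the lowest of its group. The gene fell by 2.03 ± 0.37 (SE) on the log2 scale (adjusted p = 0.00453), and by 2.40 without U.NK 2 (adjusted p = 7.12e-05). The call was also made without each other library (highest adjusted p = 0.0367). TEA019593, with a cation transport domain of the HKT type, was the other gene called in every such fit, at 1.91, 1.62 and 4.37 CPM in U.NK and 0.409, 0.389 and 0.13 CPM in U.SK (log2 fold change −3.10, adjusted p = 0.00357). In both genes the groups did not overlap. TEA019593 and TEA005066 were chosen after their values were seen. TEA005066, the K transporter with the highest mean level per length (authors' FPKM of 172 in U.NK and 272 in U.SK on average), gave 401, 576 and 255 CPM in U.NK and 722, 620 and 584 CPM in U.SK. All U.SK values were above U.NK, with U.NK 2 the highest U.NK library, yet the gene did not pass the test with all libraries (log2 fold change 0.64, adjusted p = 0.163), but did without U.NK 2 (0.95, adjusted p = 0.0343).

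Among regulators linked to K supply, 1 of 30 CIPK-type kinases was called higher (3.33%, against 1.96% of all genes) and 5 lower (16.7%, against 5.88%). None was called without U.NK 1, U.NK 3 or U.SK 1, 1 was higher and 2 lower without U.SK 2, and 2 were higher and 8 lower without U.NK 2. Among 118 protein phosphatases 2C, 1 was higher (0.847%) and 5 lower (4.24%), both below the shares of all genes. Without U.NK 2 the phosphatases had 13 higher (11%, against 5.93%) and 10 lower (8.47%, against 12.3%), without U.SK 3 they had 6 and 7, and 1 was lower without U.NK 3 or U.SK 1 and 3 without U.SK 2. The CIPK-type kinase TEA014908 had 42.2, 56.2 and 57.9 CPM in U.NK and 165, 104 and 69.2 CPM in U.SK. Its U.SK values were all above those of U.NK, and it rose by 1.11 ± 0.26 on the log2 scale (adjusted p = 0.0141). TEA006044, the most abundant called kinase of that family, had 261, 129 and 234 CPM in U.NK and 112, 139 and 96.5 CPM in U.SK. U.NK 2 lay inside the U.SK range, and the gene fell by 0.85 ± 0.25 (adjusted p = 0.0398). Both calls were lost when U.NK 1, U.NK 3 or U.SK 1 was left out, with adjusted p-values of 0.0666, 0.0677 and 0.136 for TEA014908 and 0.165, 0.203 and 0.135 for TEA006044, and that of TEA006044 also without U.SK 3 (0.0956). The phosphatase TEA001913 had 141, 44.6 and 143 CPM in U.NK and 31.1, 36.3 and 33.6 CPM in U.SK, and fell by 1.70 ± 0.36 (adjusted p = 0.00889, but 0.0757 without U.NK 3 and 0.0538 without U.SK 1).

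Transporters of other nutrients were lower where they were called, with few exceptions. Of 77 nitrate and peptide transporters of the POT family, 0 were higher and 11 lower (14.3%, against 5.88% of all genes). Of 23 ZIP and Nramp metal transporters 0 were higher and 5 lower (21.7%), and of 42 aquaporins 1 was higher (2.38%, against 1.96%) and 4 lower (9.52%). Without U.NK 2 the lower calls were 14, 7 and 12 (18.2%, 30.4% and 28.6%, against 12.3% of all genes) in the order POT, ZIP and Nramp, aquaporins. They were 1, 1 and 1 without U.NK 3, 3, 2 and 1 without U.SK 1, 2, 2 and 2 without U.SK 2, 6, 2 and 2 without U.NK 1, and 9, 2 and 2 without U.SK 3. Over all genes the lower calls also fell, from 2089 to 259 without U.NK 3 and to 558 without U.SK 1. TEA003718, an ammonium transporter on scaffold 6205 (150527 to 152068), had 85.8, 5.81 and 84.3 CPM in U.NK and 2.70, 2.34 and 0.13 CPM in U.SK. U.NK 2 was far below the other U.NK libraries and close to the U.SK values, though above them. The log2 fold change was −5.13 ± 0.79 (adjusted p = 0.00278). TEA017264, an Nramp-type metal transporter on scaffold 337 (383489 to 390463), gave 222, 37.5 and 320 CPM in U.NK and 13.4, 14.6 and 21.5 CPM in U.SK, with a log2 fold change of −3.55 ± 0.69 (adjusted p = 0.00593). The sulfate permease TEA000720 gave 25, 2.45 and 44.4 CPM against 1.88, 1.48 and 1.10 CPM (log2 fold change −4.02 ± 0.71, adjusted p = 0.00397). In these 3 genes U.NK 2 was the lowest U.NK library, the groups did not overlap, and the call was made whichever library was left out. TEA003718 and TEA000720 were named by a rule that required no overlap.

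Aquaporins are channels that carry water across membranes, and 37 of the 42 did not pass the test. TEA020018 gave 572, 164 and 587 CPM in U.NK and 149, 212 and 148 CPM in U.SK, where U.NK 2 lay inside the U.SK range (log2 fold change −1.38 ± 0.39, adjusted p = 0.0361). TEA019952 gave 180, 231 and 174 CPM against 296, 321 and 462 CPM and rose by 0.88 ± 0.24 (adjusted p = 0.0259). Neither call survived the loss of U.NK 3 (adjusted p = 0.223 and 0.162) or of U.SK 3 (0.076 and 0.0884), nor that of U.NK 1 (0.129 and 0.0925) or U.SK 1 (0.145 and 0.053), and that of TEA020018 was lost without U.SK 2 (0.0569).

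Of 9 tested genes with a domain of glutamine synthetase, which fixes ammonium into glutamine, 3 were lower (33.3%, against 5.88% of all genes) and 0 higher. Without U.NK 3, 0 were lower, and without U.SK 1, 1 was. TEA015198, a gene model that also carries an amidohydrolase domain, gave 1790, 1110 and 2180 CPM in U.NK and 589, 872 and 660 CPM in U.SK. The groups did not overlap, and the gene fell by 1.26 ± 0.27 on the log2 scale (adjusted p = 0.00889), with the call lost without U.NK 3 (0.0795) or U.SK 1 (0.0612). The summed level of all 9 genes was 3817, 1697 and 4485 CPM in U.NK and 1013, 1460 and 1215 CPM in U.SK, so that U.NK 2 was the lowest U.NK library and remained above all of U.SK.

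**Figure D3:**
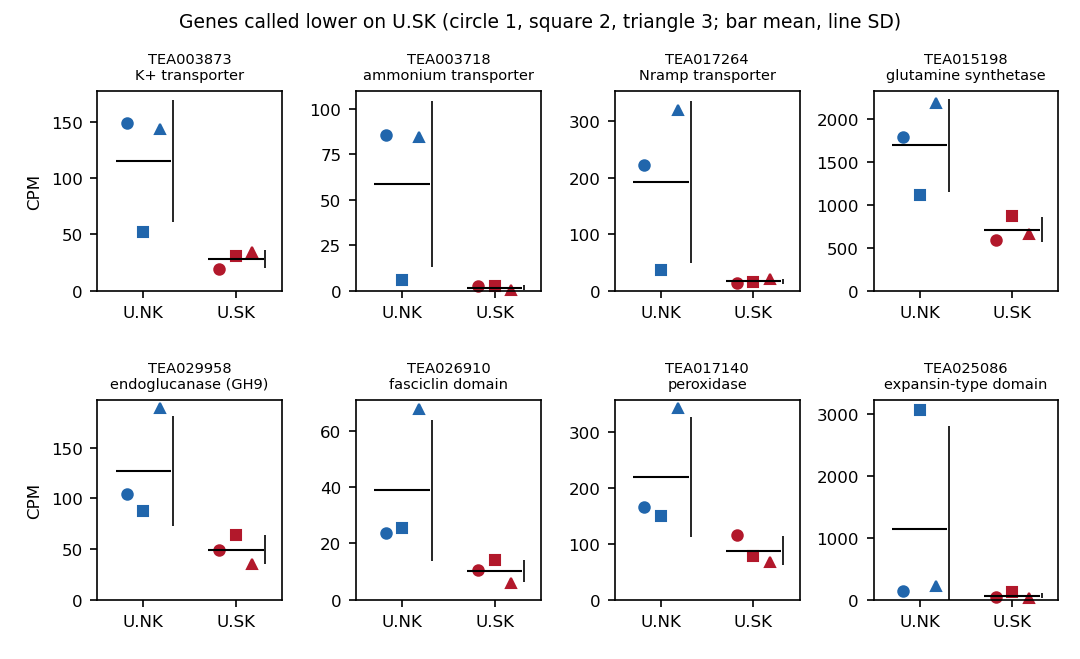
CPM of 8 genes called lower on U.SK in each library of “1511” (circle, square and triangle for replicates 1, 2 and 3; horizontal bars are means and vertical lines SDs, n = 3). For TEA003873 the square of U.NK (52.1 CPM) sits below the other U.NK points, and for TEA025086 it is the only high value (3070 CPM).

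Wall-modifying enzymes were mostly lower where they were called. Of 24 endoglucanases of family 9, 0 were higher and 8 lower (33.3%, against 5.88% of all genes), with a median log2 fold change of −1.10, and 11 were lower without U.NK 2 (45.8%, against 12.3%). Of 42 expansins 1 was higher and 14 were lower, of 44 xyloglucan endotransglucosylases 0 and 8, of 49 pectin methylesterases 1 and 9, of 49 cellulose synthases 1 and 7, and of 16 fasciclin-like arabinogalactan proteins 0 and 6. The medians were −0.83, −0.64, −0.81, −0.43 and −1.0 in that order. With genes at or below 3 counts per library in either group set to that floor, the medians were −0.59, −0.21, −0.55, −0.41 and −1.0. The xyloglucan endotransglucosylase median was −0.13 without U.NK 2, and that of pectin methylesterases −0.55. Xyloglucan endotransglucosylases summed to 551.9, 823.8 and 559.9 CPM in U.NK and 677.8, 761.3 and 606.3 CPM in U.SK, so their sum did not fall. The sums of endoglucanases, pectin methylesterases, cellulose synthases and fasciclin-like proteins were lower in every U.SK library than in every U.NK library. Without U.NK 2 the lower calls in the same order were 13, 9, 8, 17 and 9, against 12.3% of all genes, and only 4 of the 9 pectin methylesterases called lower with all libraries were among the 8. Without U.NK 3 they were 2, 5, 0, 2 and 3, without U.SK 1 4, 5, 0, 3 and 3, without U.SK 2 8, 6, 4, 4 and 4, and without U.SK 3 11, 8, 4, 5 and 4. Endoglucanases had 2 lower calls without U.NK 3 and 2 without U.SK 1. Over all genes there were 259 lower calls without U.NK 3 and 558 without U.SK 1.

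TEA029958, the most abundant called endoglucanase (scaffold 251, 2726281 to 2732886), gave 104, 87.3 and 189 CPM in U.NK and 48.5, 63.7 and 34.9 CPM in U.SK. It fell by 1.37 ± 0.25 on the log2 scale (adjusted p = 0.00453). TEA026325, an endoglucanase with a carbohydrate-binding domain, gave 24.4, 4.61 and 49.7 CPM against 3.02, 1.56 and 3.64 CPM (log2 fold change −3.25 ± 0.61, adjusted p = 0.00485). The cellulose synthase TEA008029 gave 57.0, 85.0 and 99.2 CPM against 25.3, 34.7 and 22.0 CPM (−1.56 ± 0.25, adjusted p = 0.00287). TEA026910, with the fasciclin domain of cell surface arabinogalactan proteins, gave 23.5, 25.3 and 67.7 CPM against 10.5, 13.9 and 6.04 CPM (−1.94 ± 0.35, adjusted p = 0.00411). None of these 4 genes overlapped between the groups, and each was called whichever library was left out. In TEA008029 and TEA026910, U.NK 2 was not the lowest of the U.NK libraries. The xyloglucan endotransglucosylase TEA010785 had 327, 32 and 576 reads in U.NK and 0, 3 and 0 reads in U.SK, and no fold is given at so few reads.

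Not every wall gene followed this pattern in U.NK 2. TEA025086, with the double-psi beta-barrel domain of expansins, gave 146, 3070 and 212 CPM in U.NK and 48.2, 115 and 31.6 CPM in U.SK. TEA025076, on the same scaffold 3629, gave 10.3, 253 and 17.2 CPM against 3.60, 6.54 and 3.57 CPM. The pectinesterase TEA004817, whose gene model also carries an RNA-binding domain, gave 187, 932 and 243 CPM against 50.4, 86.5 and 101 CPM, and the laccase TEA020596 gave 57.2, 327 and 127 CPM against 27.9, 39.6 and 41.8 CPM. In all 4 genes U.NK 2 was the highest of the 6 libraries, and all 4 were called lower with it (adjusted p = 0.0329, 0.0258, 0.0426 and 0.0237) but not without it (0.261, 0.228, 0.152 and 0.0846). Without U.SK 1 they were not called either (0.143, 0.122, 0.175 and 0.118), nor without U.NK 3 (0.0637, 0.0515, 0.0909 and 0.0751) or U.SK 2 (0.0605, 0.0683, 0.102 and 0.0661), and the first 3 not without U.SK 3 (0.0752, 0.058 and 0.0563). Expansins summed to 4771 CPM in U.NK 2 and to between 1071 and 1161 CPM in each of the other libraries, so the summed level was set by U.NK 2.

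In lists that act in lignin and related phenolics, more of the called genes were lower than higher, although most members did not pass the test. Of 105 class III peroxidases 1 was higher and 21 lower (20%, against 5.88% of all genes), with a median log2 fold change of −0.76, and 0 and 32 without U.NK 2 (30.5%, against 12.3%). Of 73 laccases and other multicopper oxidases 1 was higher and 12 lower, with a median of −1.09 (−0.58 with genes at the floor). Of 26 dirigent proteins 0 were higher and 7 lower, with a median of −1.37 (−0.72 with genes at the floor). Chalcone synthase, the first enzyme of flavonoid synthesis, was lower in 4 of 5 tested genes, with a median of −2.72. Of 7 phenylalanine ammonia-lyases, which open the phenylpropanoid pathway, 0 were higher and 1 lower, and of 27 O-methyltransferases 2 were higher and 2 lower. Without U.NK 2 the lower calls were 24 laccases, 9 dirigent proteins and 5 chalcone synthases. Without U.NK 3 they were 2 peroxidases, 2 laccases, 2 dirigent proteins and 0 chalcone synthases, and without U.SK 1 they were 6, 3, 2 and 1. Peroxidases had 14 lower calls without U.SK 2 and 13 without U.NK 1, dirigent proteins 3 without U.SK 2 and 4 without U.SK 3, and chalcone synthases 2 without U.SK 3. The summed level of these 5 genes was 58.9, 18.5 and 166 CPM in U.NK and 14.6, 14 and 14 CPM in U.SK, highest in U.NK 3. The peroxidase TEA017140 gave 165, 150 and 342 CPM in U.NK and 116, 78.0 and 67.0 CPM in U.SK and fell by 1.33 ± 0.40 (adjusted p = 0.0466). Its call was made only in the fit without U.NK 2 when a library was left out (adjusted p = 0.0156), and the others gave 0.0567 to 0.354.

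Few other genes of reactive oxygen species passed the test. Of 12 superoxide dismutases, 1 was called higher and 0 lower. TEA008360, an iron/manganese superoxide dismutase, gave 3.61, 3.11 and 2.56 CPM in U.NK and 5.80, 6.23 and 12.3 CPM in U.SK. It rose by 1.39 ± 0.32 (adjusted p = 0.0133, but 0.106 without U.NK 3 and 0.059 without U.SK 3). The study names this gene for its rise under K stress in “1511”, so the rise here is no independent result. Of 111 glutathione S-transferases 2 were higher (1.8%) and 5 lower (4.5%), both near the shares of all genes (1.96% and 5.88%), and of 7 NADPH oxidases 0 and 1. Germins, extracellular proteins of the cupin fold, had 0 higher and 16 lower of 73 genes (21.9%, against 5.88%), 26 lower without U.NK 2 (35.6%, against 12.3%), 10 without U.NK 1, 6 without U.SK 2, and 2 without U.NK 3 or U.SK 1.

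**Figure D4:**
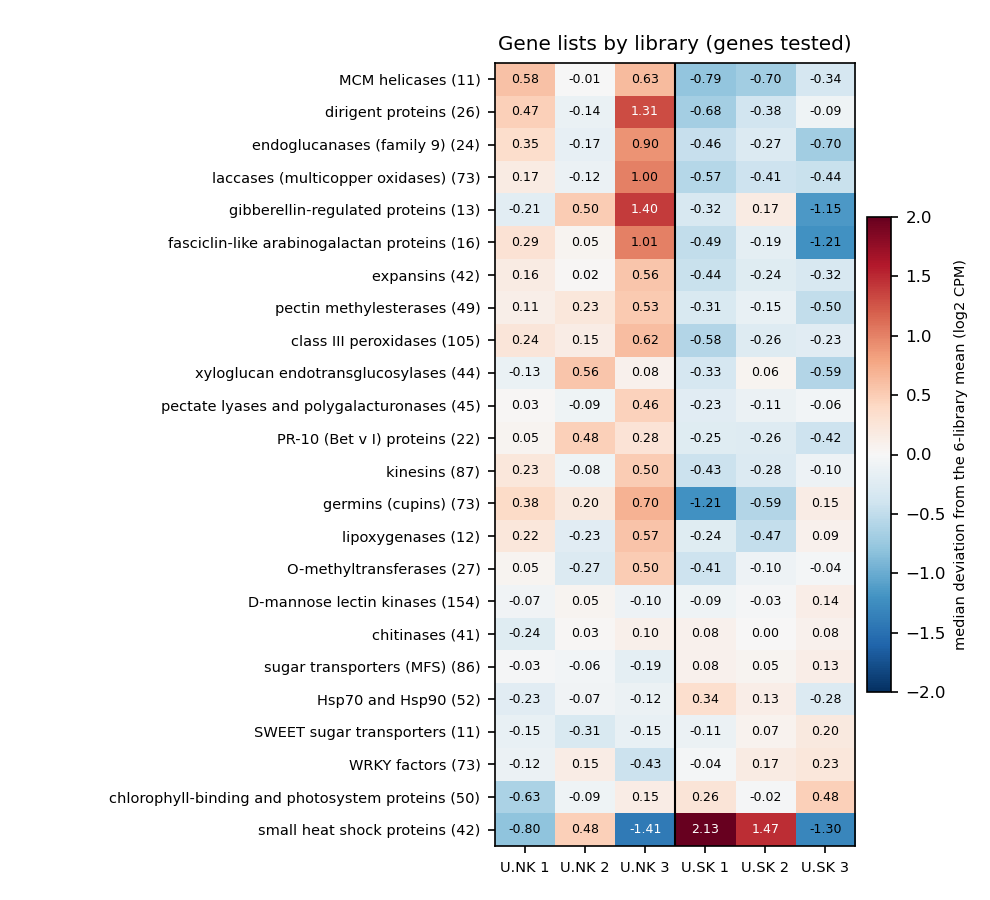
Median deviation of list members from their mean over the 6 libraries (log2 CPM) for the 16 lists with the lowest and the 8 with the highest median log2 fold change among lists with at least 10 tested genes. Small heat shock proteins are high in U.SK 1 (2.13) and U.SK 2 (1.47) and low in U.SK 3 (−1.30), and U.NK 2 lies between the other U.NK libraries and U.SK in endoglucanases (−0.17, against 0.35 and 0.90).

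Some genes of dividing and growing cells were called lower, but most did not pass the test. Of 87 kinesins, motor proteins of microtubules, 0 were higher and 13 lower (14.9%, against 5.88% of all genes), and of 11 MCM helicases, which unwind DNA at replication, 0 and 4. The counts were 0 and 3 of 39 core histones (7.69% lower, near the share of all genes) and 1 and 5 of 45 cyclins (11.1% lower). The summed level of cyclins went the other way, at 603.9, 607.1 and 598.8 CPM in U.NK and 669.5, 612 and 649.1 CPM in U.SK. Sums overlapped between the groups for core histones (3033, 3274 and 2830 CPM against 2786, 3082 and 3151 CPM). They also did for kinesins (880.2, 745.5 and 1102 CPM against 583.3, 627.2 and 750.1 CPM) and MCM helicases. Without U.NK 2, 25 kinesins, 5 MCM helicases, 8 histones and 9 cyclins were lower (28.7%, 45.5%, 20.5% and 20%, against 12.3%), and without U.NK 3 the counts were 1, 0, 0 and 1. Kinesins had 2 lower calls without U.SK 1, 6 without U.SK 2 and 7 without U.NK 1. Among 347 ribosomal proteins 3 were higher and 22 lower (6.34%, against 5.88% of all genes), and 85 were lower without U.NK 2 (24.5%, against 12.3%), 38 without U.SK 3, 6 without U.NK 1, 5 without U.SK 2, 1 without U.SK 1 and 0 without U.NK 3. Their median log2 fold change was −0.28. Their summed level was 19890, 16140 and 23520 CPM in U.NK and 14360, 16330 and 17660 CPM in U.SK, with U.NK 2 inside the U.SK range. In libraries of whole roots, fewer cells of a type and less RNA per cell cannot be told apart. The 32 genes with the domain of Casparian strip membrane proteins (DUF588) had 0 higher and 3 lower calls (9.38% lower, against 5.88% of all genes). Without U.NK 2, 7 were lower (21.9%, against 12.3%). Their summed level went the other way, at 962 to 2393 CPM in U.NK and 2568 to 2928 CPM in U.SK. Whether these genes mark the root endodermis was not tested.

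Chlorophyll-binding and photosystem proteins, which mark photosynthetic tissue, were also present in these roots at a summed level of 799, 1097 and 828 CPM in U.NK and 1668, 1333 and 1435 CPM in U.SK. Of 50 such genes 3 were higher (6.0%, against 1.96% of all genes) and 0 lower, and none was higher without U.NK 1, U.NK 3 or U.SK 1, and 2 were without U.SK 3. Without U.NK 2, 8 were higher (16%, against 5.93%) and 2 lower. TEA006446, a gene model with a photosystem II 10 kDa protein and a second, NAD(P)-binding domain, gave 238, 405 and 164 CPM against 768, 585 and 648 CPM (log2 fold change 1.31 ± 0.31, adjusted p = 0.0141, but 0.0587 without U.NK 1, 0.118 without U.NK 3 and 0.0772 without U.SK 1). Without this gene the list summed to 561.5, 692 and 663 CPM in U.NK and 900, 748 and 787 CPM in U.SK, so that it carried most of the difference in the sum. The part of these genes in the other results was not tested.

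Both heat shock lists had the highest shares of higher calls among the 62 lists, and their called members were high in U.SK 1 and U.SK 2 but not in U.SK 3. Of 42 small heat shock proteins 12 were called higher and 3 lower (28.6% higher, against 1.96% of all genes), and of 52 Hsp70 and Hsp90 genes 10 were higher (19.2%) and 3 lower. Without U.NK 2, 21 and 13 were higher (50% and 25%, against 5.93%), and without U.SK 3, 22 and 16. The calls rested on the other libraries, with 0 and 1 higher without U.NK 3, 0 and 2 without U.SK 1, 3 and 7 without U.SK 2, and 1 and 6 without U.NK 1. Over all genes, 34, 65, 259 and 188 were higher in the same order. The summed level of the small heat shock proteins was 1029, 2259 and 1124 CPM in U.NK and 10850, 9131 and 666 CPM in U.SK. U.SK 3 was thus the lowest of the 6 libraries and U.NK 2 the highest of its group. The summed level of Hsp70 and Hsp90 was 3977, 4517 and 4851 CPM in U.NK and 14080, 11400 and 4292 CPM in U.SK. In all 12 and all 10 genes called higher the groups overlapped.

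TEA004360, the most abundant called small heat shock protein (scaffold 5679, 8257 to 8739, 1 exon), gave 111, 278 and 139 CPM in U.NK and 1450, 1420 and 72.3 CPM in U.SK. Its mean was 176 ± 89.4 CPM (SD, n = 3) in U.NK and 981 ± 787 CPM in U.SK. The log2 fold change was 2.48 ± 0.61 (adjusted p = 0.0174), and 3.02 without U.SK 3 (adjusted p = 9.21e-06). The call was lost without U.NK 1 (0.0758), U.NK 3 (0.122), U.SK 1 (0.0958) or U.SK 2 (0.0682). TEA016722, the most abundant called Hsp70 (scaffold 4924, 171680 to 173122), gave 289, 516 and 393 CPM against 2260, 1840 and 387 CPM. It rose by 1.91 ± 0.42 on the log2 scale (adjusted p = 0.0100), which was lost without U.NK 3 (0.0756) or U.SK 1 (0.0789).

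Across all 12 small heat shock proteins called higher, the median level was 13.9, 59.5 and 9.98 CPM in U.NK and 500, 386 and 5.68 CPM in U.SK. Without both U.NK 2 and U.SK 3, 24 members of the list were called higher. The 3 members called lower were chosen by the same domain, and the most abundant of them, TEA017422, is a gene model that also carries a cyclophilin domain (503, 348 and 655 CPM against 210, 277 and 324 CPM, log2 fold change −0.89, adjusted p = 0.0136, but 0.134 without U.NK 3 and 0.084 without U.SK 1). Members of gene families such as these can share reads, and how the counting treated such reads was not given in the sources used here.

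**Figure D5:**
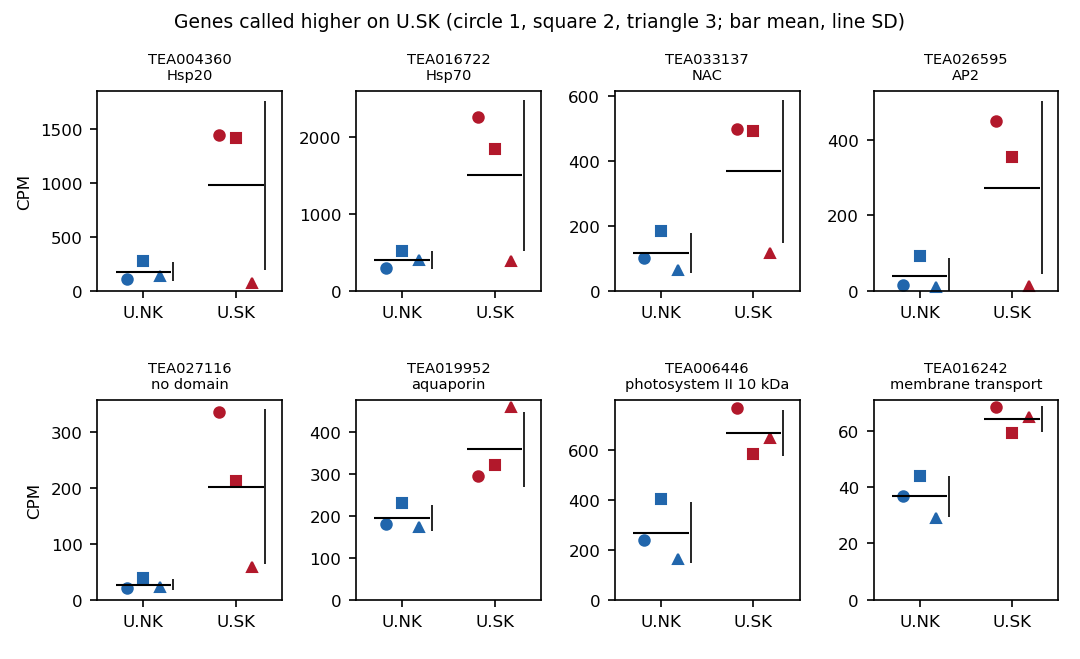
CPM of 8 genes called higher on U.SK in each library of “1511” (circle, square and triangle for replicates 1, 2 and 3; horizontal bars are means and vertical lines SDs, n = 3). In the upper 4 genes U.SK 3 lies among the U.NK libraries or below them (72.3 CPM for TEA004360), and in the lower 4 all U.SK libraries lie above U.NK.

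The most abundant called NAC and AP2/ERF factor genes were also high in U.SK 1 and U.SK 2 and lower in U.SK 3. The NAC factor TEA033137 gave 102, 183 and 63.8 CPM in U.NK and 498, 492 and 115 CPM in U.SK (log2 fold change 1.66 ± 0.43, adjusted p = 0.0237). The AP2/ERF factor TEA026595 gave 15.3, 92.6 and 10.1 CPM against 450, 355 and 13.4 CPM (2.8 ± 0.82, adjusted p = 0.0406). In both genes U.SK 3 lay within the U.NK range. Neither gene was called when U.NK 1, U.NK 3, U.SK 1 or U.SK 2 was left out (adjusted p = 0.0862 to 0.175 for TEA033137 and 0.103 to 0.222 for TEA026595). WRKY factors, regulators of stress responses, had 2 higher (2.74%, against 1.96% of all genes) and 1 lower (1.37%, against 5.88%) of 73. Without U.NK 2 they had 10 higher (13.7%, against 5.93%) and 3 lower, and none was called without U.NK 1, U.NK 3, U.SK 1 or U.SK 2.

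Among genes called higher whose groups did not overlap, TEA027116, which has no Pfam domain in the table, had the largest change by the rule for named genes. It gave 20, 38.4 and 22.7 CPM in U.NK and 336, 212 and 59.1 CPM in U.SK (log2 fold change 2.90 ± 0.46, adjusted p = 0.00278), and it was called whichever library was left out. TEA027009, with a GRAM domain, gave 9.23, 12.8 and 7.17 CPM against 53.9, 38.2 and 14.4 CPM (1.86 ± 0.35, adjusted p = 0.00486) and was called in each such fit as well. In both genes U.SK 3 was the lowest of its group. TEA016242, of the Pfam family that holds the PIN auxin efflux carriers, gave 36.7, 43.9 and 29.1 CPM against 68.4, 59.2 and 64.8 CPM, with little spread within groups. It rose by 0.81 ± 0.24 (adjusted p = 0.0411). Its call was also made without U.NK 2 (0.0200) but in no other fit with a library left out (0.0602 to 0.251). The study describes TEA016242 as related to K transport and up-regulated under K stress in “1511”. The rise here is therefore no independent result, and the gene is not in the K transporter and channel list above.

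Among genes called lower whose groups did not overlap, the protein kinase TEA010125 gave 55.8, 8.68 and 70.3 CPM in U.NK and 1.88, 3.19 and 1.36 CPM in U.SK (log2 fold change −4.40 ± 0.77, adjusted p = 0.00381). TEA032699, a carbohydrate kinase of the pfkB family, gave 29.0, 1.56 and 37.2 CPM against 1.14, 0.623 and 0.649 CPM (−4.81 ± 0.87, adjusted p = 0.00429). TEA027103, with the domains of xylanase inhibitors, gave 22.6, 6.88 and 51.5 CPM against 1.31, 2.02 and 0.52 CPM (−4.42 ± 0.76, adjusted p = 0.00356). U.NK 2 was the lowest U.NK library in each, and each was called whichever library was left out.

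Sugar metabolism genes that the study names were lower or did not pass the test. The study took them from genes that responded to low K in this series. Their change between U.NK and U.SK is therefore no independent result. The study's own statement on them was about heterogeneous against homogeneous K, which is not compared here. TEA008079, a glycosyl hydrolase of family 1, gave 10.5, 4.55 and 20.1 CPM against 2.94, 2.41 and 4.42 CPM (log2 fold change −1.83, adjusted p = 0.0110). TEA019040, of glycosyl hydrolase family 3, gave 6.81, 9.94 and 54.0 CPM against 5.56, 3.82 and 2.92 CPM (−2.53, adjusted p = 0.0394), and TEA014414, a carbohydrate phosphorylase, gave 5.57, 1.38 and 11.4 CPM against 0.49, 1.01 and 1.49 CPM (−2.58, adjusted p = 0.0126). In TEA014414 U.NK 2 lay inside the U.SK range, and the groups of TEA008079 and TEA019040 did not overlap. The calls of TEA008079, TEA019040 and TEA014414 were lost without U.NK 3, with adjusted p-values of 0.132, 0.513 and 0.139. They were also lost without U.SK 1, with 0.0629, 0.105 and 0.0794. The endoglucanase TEA026325, given above, is also named by the study for this pathway. Its call was made whichever library was left out (highest adjusted p = 0.0493). The calls of TEA008079 and TEA019040 were also lost without U.SK 2 (0.0507 and 0.111), and that of TEA019040 without U.SK 3 (0.0887). TEA023084, a nucleotidyl transferase, gave 1.86, 1.98 and 2.33 CPM against 0.654, 0.701 and 0.39 CPM and did not pass the test (adjusted p = 0.0833), although its groups did not overlap.

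Over Pfam descriptions, 315 had at least 20 tested genes. The highest shares of higher calls were in the DNA-binding domain of heat shock factors (6 of 20, 30.0%), Hsp20 (12 of 42, 28.6%), the DnaJ C-terminal domain of Hsp70 cofactors (6 of 26, 23.1%), Hsp70 (7 of 37, 18.9%) and DUF4413 (4 of 25, 16%), against 1.96% of all genes. Heat shock factors summed to 960, 1532 and 631 CPM in U.NK and 4344, 3161 and 1312 CPM in U.SK, with U.SK 3 below U.NK 2. The highest shares of lower calls were in the double-psi beta-barrel of expansins (13 of 36, 36.1%), the N-terminal domain of bHLH-MYC factors (9 of 25, 36.0%), the pollen allergen domain of expansins (12 of 35, 34.3%), the PMR5 N-terminal domain of polysaccharide acetyltransferases (14 of 41, 34.1%) and glycosyl hydrolase family 9 (8 of 24, 33.3%), against 5.88%. Both expansin domains occur largely in the same genes.

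The “1601” libraries were used to ask whether the change differed between the genotypes. The difference in change was called for 160 genes (0.45% of 35557 tested by edgeR over 24 libraries), lower in “1511” for 155 of them and higher for 5. This split depended on the libraries and the tool. Without U.SK 3 of “1511” 581 genes were higher and 597 lower. By limma voom they were 4434 and 4693, in a fit that weighted U.NK 1 far above U.NK 2 and U.NK 3 of “1511”. Without U.NK 2 of “1511” the number was 3166 (766 higher and 2400 lower), without U.NK 1, U.NK 3, U.SK 1 and U.SK 2 it was 100, 15, 20 and 32, and edgeR on the 12 U.NK and U.SK libraries alone called 0 (5022 with an unadjusted p-value under 0.05), where DESeq2 called 884. In “1601”, TEA003718 had a mean of 86.7 CPM in U.NK and 94.6 CPM in U.SK, and its difference between the genotypes was −5.26 on the log2 scale (adjusted p = 0.0231). TEA008029 had 117 and 132 CPM in “1601” (difference −1.72, adjusted p = 0.0351), and TEA026910 had 85.1 and 99.1 CPM (difference −2.15, adjusted p = 0.0471). For the K+ transporter TEA003873, with 111 and 80.7 CPM in “1601”, the difference of −1.57 did not pass the test (adjusted p = 0.136). No member of either heat shock list passed it. In “1601” the median log2 fold change was −0.09 for small heat shock proteins, −0.03 for endoglucanases and 0.04 for K transporters and channels.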

How the data were processed

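Per the labels and the study's methods, the authors removed adapter and low-quality reads, aligned the rest with HISAT2 2.0.5 to the tpia1 tea assembly and added genes newly assembled with StringTie. Counts were deposited as whole reads per gene without normalization. FPKM values, deposited by the authors beside them, served only for levels per length. How reads were assigned to genes, and whether strand was used, was not given in the sources used here. Gene positions and exon numbers are from the deposited gene models, and domains are the Pfam descriptions of the deposited table.

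Of 48505 genes, 35557 passed filterByExpr. Counts were TMM-normalized, 8 group means were fitted (glmQLFit, 16 residual degrees of freedom) and tested with glmQLFTest in edgeR 4.0.16 (R 4.3.3), with Benjamini-Hochberg adjustment over all genes tested. CPM used TMM-adjusted library sizes, and log2 values for library positions a prior count of 2. The alternatives also used limma 3.58.1 and DESeq2 1.42.0. The main fit and some alternatives were also run on simulated counts. These had the same spread in every group and no displaced library, unlike the data here. No conclusion is drawn from that run. Each library was also left out in turn. A setting without both U.NK 2 and U.SK 3 was added after seeing the data. The floor for folds was 3 counts per library.

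The 62 gene lists were matched to Pfam descriptions. The members and lists were chosen with earlier results of these data known. After the data were read, the patterns of the channel and Casparian lists were narrowed to drop unrelated domains. Genes named were the 10 largest changes in each direction among called genes without overlap (mean of at least 10 CPM, and at least 10 counts in the lower group), the most abundant called member of each list in each direction (or the most abundant member), and 7 genes the study names, and the text gives part of these. Of Pfam descriptions with at least 20 tested genes, the 5 with the highest share in each direction are given. No set test was run. The 7 genes that the study names were reported there from this series. Gene sequences were not used here.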

Additional observations from a re-analysis of the deposited data

Results flagged for a closer look

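The change from U.NK to U.SK differed between “1511” and “1601” for 160 genes (edgeR's quasi-likelihood test of the difference over 24 libraries, adjusted p-value under 0.05, any fold), and they are listed here because the change under the same treatment differed between the genotypes. Among the named genes, the difference, “1511” minus “1601” on the log2 scale, was −5.26 for the ammonium transporter TEA003718, −1.72 for the cellulose synthase TEA008029 and −4.44 for the protein kinase TEA010125. It was −2.15 for the fasciclin domain gene TEA026910, −5.17 for TEA027103 (xylanase inhibitor domains), −4.88 for TEA027538 (NmrA-like), −2.21 for the sugar transporter TEA029609 and −5.07 for the pfkB kinase TEA032699. The fitted value of −7.87 for the xyloglucan endotransglucosylase TEA010785 rests on 3 reads in all U.SK libraries of “1511” and is no bound. In each of these 9 genes all U.NK libraries of “1511” were above all its U.SK libraries. The rule that named TEA003718, TEA010125, TEA027103, TEA027538 and TEA032699 required this. Groups did not overlap in 66.7% of all genes called lower and in 19.8% of all tested genes. U.NK 2 was the lowest U.NK library except in TEA008029 and TEA026910. Without U.NK 3 of “1511” the number of genes whose change differed was 15, and without U.NK 2 it was 3166.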

How the results depend on the processing

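The count of genes called in “1511” (2786) was 2758 with DESeq2's size factors, 2480 with no filter on low counts, 2114 with at least 10 counts in every library and 2655 without newly assembled genes. It was 13463 with limma voom and sample quality weights, 6793 of them higher and 6670 lower, so that the excess of lower genes was absent. The count was 4473 with DESeq2 on all 24 libraries and 1198 with DESeq2 on only the 6 libraries compared. With edgeR on 12 or on 6 libraries it was 0. Leaving out 1 library gave 293 to 6611 calls. Without U.NK 2, it was 3457 on the 12 libraries of “1511”, 1570 with edgeR and 4786 with DESeq2 on the libraries compared, and 9187 with limma voom. Without both U.NK 2 and U.SK 3, a setting added after seeing the data, it was 7834. The difference between the genotypes was called for 143 genes with DESeq2's size factors, 185 with no filter, 176 without newly assembled genes, 32 with at least 10 counts in every library, 9127 with limma voom, 884 with DESeq2 and 0 with edgeR on the 12 libraries compared, 15 to 3166 with 1 library left out, and 5211 without both libraries (2056 higher and 3155 lower, against 5 and 155). The sample quality weights of limma voom were 11.1, 0.269 and 0.473 for U.NK 1 to 3 of “1511”. They were 1.05, 1.73 and 0.26 for its U.SK 1 to 3. Why the tools differ was not tested.

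Whether replicate numbers pair the samples cannot be told from 3 libraries a group. Deviations from the group means of same-numbered U.NK and U.SK libraries correlated at −0.12, 0.12 and 0.22. Those of differently numbered libraries correlated at −0.25 to 0.23. A replicate block gave 2437 calls and 72 for the difference, and 79 of the 109 named genes called were still called. U.NK 2 lay at 0.24 between the group means over all genes and at 0.19 over genes of at least 10 CPM. The gibberellin-regulated protein gene with the highest mean CPM of its list (a newly assembled gene), not called and near no change with edgeR (log2 fold change −0.02), was higher with limma voom and sample quality weights (1.54, and 1.48 without U.NK 2). Of 109 named genes called, 0 reversed under the settings run. Most were named because they were called in these data. Where the groups did not overlap, leaving out a library could hardly turn the sign. The lack of reversals is therefore no measure of how firm the calls are. Of the 109 genes, 104 were still called without U.NK 2, 78 without U.SK 3 and 59 without U.NK 1. The number was 58 without U.SK 2, 30 without U.SK 1 and 20 without U.NK 3. With 3 libraries a group, genes with few reads are limited most, and 3751 tested genes were at or below the floor of 3 counts per library in a group.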
